A study of Mus musculus with 48 samples.

Results

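The question was whether 15 Gy of protons changed gene expression in salivary gland organoids differently from 15 Gy of photons, 2 days after irradiation. The contrast is (15 Gy protons minus Control protons) minus (15 Gy photons minus Control photons), taken on the log2 scale for every gene and called the difference here. A positive difference means that protons moved a gene further up, or less far down, than photons did. It rests on 12 of the 48 libraries of the series, 3 in each of 4 groups, and 11116 of the 47643 listed genes passed the filter on low counts. Every gene tested belongs to the contrast, and the gene groups described below come from lists of known pathway members.

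All 4 groups were organoids grown in Matrigel from the submandibular glands of C57BL/6 mice aged 8 to 12 weeks, in a medium with dexamethasone and with Wnt3a and R-spondin1 conditioned media. The 15 Gy protons group received 15 Gy of plateau protons on day 5 of culture, and Control protons is its unirradiated control. The 15 Gy photons group received the same dose of photons on the same day of culture, and Control photons is its own unirradiated control. The labels place photon and proton exposure on separate days, so that in the difference the radiation type and the irradiation day cannot be told apart. A mouse number in the labels stands for 1 animal among the libraries of a radiation type, and whether mouse 1 of the photons is also mouse 1 of the protons is not stated.

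Ionising radiation breaks DNA, and the tumour suppressor p53 then switches on genes that halt the cell cycle or start cell death. Damaged cells can also leak DNA or expose RNA to sensors in the cytosol, which leads to interferon release, and interferon acts through factors that include STAT2 and IRF9 to switch on interferon-stimulated genes. A separate programme, squamous differentiation, is known best from the skin and the mouth lining, where keratinocytes build a cornified envelope from loricrin, small proline-rich proteins and late cornified envelope proteins. Kallikrein proteases and their inhibitors then control how such cells are shed. Basal cells of salivary ducts carry keratins of the same family.

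Promoters of 2 interferon-stimulated genes and 2 cornified envelope genes are shown as RefSeq gives them for GRCm38.p6. Each window runs from 250 bases before to 50 bases after the gene start. Genes of both kinds are described together below, as lists. In the 2 interferon-stimulated promoters the capitals mark GAAANNGAAA, the core of the interferon-stimulated response element, which STAT2 and IRF9 bind in a complex, searched on both strands with overlapping matches joined. Isg15 (ENSMUSG00000035692; chr4:156200769-156201068, minus strand) encodes a ubiquitin-like protein, and Ifit1 (ENSMUSG00000034459; chr19:34640639-34640938, plus strand) a protein that binds viral RNA.
Isg15: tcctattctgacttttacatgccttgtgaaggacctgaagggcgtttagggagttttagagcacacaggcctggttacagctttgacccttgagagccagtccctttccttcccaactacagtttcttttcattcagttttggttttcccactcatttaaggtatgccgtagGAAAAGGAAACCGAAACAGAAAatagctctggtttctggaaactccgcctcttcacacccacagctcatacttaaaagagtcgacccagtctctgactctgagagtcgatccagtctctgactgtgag
Ifit1: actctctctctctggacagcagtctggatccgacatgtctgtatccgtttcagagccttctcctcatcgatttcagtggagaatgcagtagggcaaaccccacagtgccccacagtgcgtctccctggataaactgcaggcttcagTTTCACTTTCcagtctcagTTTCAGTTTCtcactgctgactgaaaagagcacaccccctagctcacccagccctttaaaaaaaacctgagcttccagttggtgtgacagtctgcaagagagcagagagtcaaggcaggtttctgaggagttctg
In the 2 cornified envelope promoters the capitals mark TGANTCA, the AP-1 site that Fos and Jun proteins bind, searched in the same way. Sprr1a (ENSMUSG00000050359; chr3:92485832-92486131, minus strand) encodes a small proline-rich protein, and Lor (ENSMUSG00000043165; chr3:92083093-92083392, minus strand) encodes loricrin.
Sprr1a: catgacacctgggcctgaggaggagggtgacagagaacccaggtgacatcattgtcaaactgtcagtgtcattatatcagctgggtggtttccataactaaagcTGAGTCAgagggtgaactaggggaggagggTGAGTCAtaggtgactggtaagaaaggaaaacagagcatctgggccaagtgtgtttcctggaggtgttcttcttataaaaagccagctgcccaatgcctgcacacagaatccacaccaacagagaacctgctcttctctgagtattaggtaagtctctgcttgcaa
Lor: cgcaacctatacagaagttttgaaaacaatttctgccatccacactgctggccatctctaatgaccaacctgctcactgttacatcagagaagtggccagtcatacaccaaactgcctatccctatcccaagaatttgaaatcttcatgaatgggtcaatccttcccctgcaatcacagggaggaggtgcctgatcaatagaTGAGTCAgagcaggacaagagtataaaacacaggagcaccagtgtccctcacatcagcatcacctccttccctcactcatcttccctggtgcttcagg
Over the first window of all 27025 genes in the table, 3.49% held GAAANNGAAA, and 25 of 48 windows found for the 63 interferon-stimulated genes did (52.1%). TGANTCA stood in 7.93% of all first windows and in 7 of 14 windows found for the 25 squamous genes (50.0%). That list holds Sprr1a and not Lor. TGANTCA was also in 11 of the 48 interferon-stimulated windows (22.9%), and GAAANNGAAA in 1 of the 14 squamous windows (7.14%). These matches describe letters in the windows, and binding was not measured.

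The 12 libraries held 2027640 to 3527740 counts in genes, with 14115 to 15186 genes having at least 1 count. Mitochondrially encoded genes took 8.87 to 10.2% of the counts in 15 Gy protons and 8.87 to 9.48% in Control protons, against 5.07 to 5.76% in 15 Gy photons and 4.28 to 6.84% in Control photons. Control photons mouse 3 stood apart from the other libraries, at -39.2 on the first and -36.1 on the second principal component over 6965 genes, where its 2 fellow controls stood between -5.10 and -2.06 and between -12.4 and 4.70. Summed markers of basal duct cells ran from 18130 to 20389 CPM in 15 Gy protons and from 14009 to 17393 CPM in Control protons, against 11121 to 13559 CPM in 15 Gy photons and 10463 to 16440 CPM in Control photons. Acinar markers summed to 229 CPM at most, with Bpifa2, Cst10, Dcpp1 and Dcpp2 of the 14 at 0 in all 12 libraries. Immune markers summed to 7.04 CPM at most, with 6 of 15 at 0 throughout, and endothelial markers to 4.97 CPM at most. CPM here are counts scaled to library sizes that TMM had adjusted, in the usual CPM unit. In such bulk libraries, fewer cells of a type and less RNA per cell cannot be told apart.

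No gene passed the threshold for the difference in the main fit, which did not use the mice as a block. With edgeR's quasi-likelihood test on the 24 libraries of day 2, 0 of 11116 genes (0%) had a Benjamini-Hochberg adjusted p under 0.05, and the smallest adjusted p was 0.144, for Ncam1. At an unadjusted p under 0.05 stood 571 genes (5.14%), 348 with a positive (3.13%) and 223 with a negative difference (2.01%), and 884 did without Control photons mouse 1. limma-voom also called 0 genes and DESeq2 called 4, Serpinb12, Lor and Gm94 higher and Ncam1 lower. The median difference over all genes was 0.04, and the 95% interval reached a median of 0.669 log2 units to either side. On simulated counts with the same groups, this test recovered 87 of 100 genes given a log2 difference of 2 and 31 of 100 given a log2 difference of 1. Of its 126 calls, 8 were unchanged genes. Counts were drawn independently for each library, with no shared mouse effect and no library standing apart. Recovery in the real libraries was therefore not measured.

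With the mouse as a block within each radiation type, 58 genes were called, 53 higher (0.477%) and 5 lower (0.045%). The block leaves the size of a difference nearly as it was and is meant to take out what the libraries of a mouse share. Deviations from group means had a mean correlation of 0.09 between same-numbered libraries in each type. Between a 15 Gy library and its own control the correlation was negative for every mouse, from -0.57 to -0.03. Treating same-numbered mice of both radiation types as the same animals called 0 genes. The 58 became 33 without Control protons mouse 2, 37 without Control protons mouse 3 and 20, all of them among the 58, when the fit held only the 12 libraries of the contrast. Without Control photons mouse 3 it was 84, with 55 of the 58 among them. Lowering the filter to genes with any count at all, with no block, called 122 genes, 101 higher and 21 lower, and all 58 were among them.

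**Figure D1:**
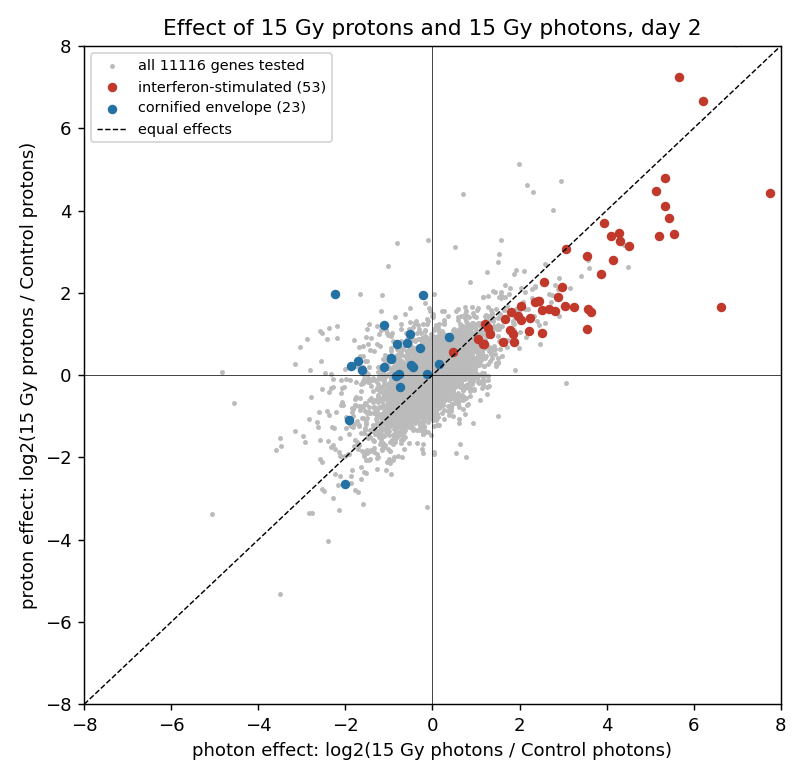
Each grey point is 1 of the 11116 genes tested, with its photon effect on the x axis and its proton effect on the y axis, both as fitted log2 fold changes at 15 Gy on day 2 from 3 libraries a group. Most of the 53 interferon-stimulated genes (red) lie below the dashed line of equal effects, and 22 of the 23 squamous and cornified envelope genes (blue) lie above it.

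Part of the response was called after both radiation types. Protons changed 783 genes, 377 higher (3.39%) and 406 lower (3.65%), and photons changed 909, 416 higher (3.74%) and 493 lower (4.44%). Both changed 429 of them in the same direction, which is 54.8% of the proton genes and 47.2% of the photon genes, and 0 in opposite directions, which was 16 with the mouse block, 28 with no filter on low counts and 2 with mice shared by both types. Of the 1263 genes called in either, 1182 (93.6%) had the same sign in both. The 429 are among them, so that part of this share is fixed by the choice of genes. Over all genes tested the log2 changes of the 2 effects had a correlation of 0.66. Among the 354 genes called after protons only, 95 had a difference at an unadjusted p under 0.05. Among the 480 called after photons only, 122 did, where 5.14% of all genes did. Both sets were chosen in this same fit because 1 effect passed and the other did not. Their larger shares are therefore in part fixed by the choice. The 2 effects have no library in common. The count for protons fell to 399 without 15 Gy protons mouse 2, 464, 493 and 512 without Control protons mouse 2, 3 and 1, and 510 without 15 Gy protons mouse 3. The count for photons fell to 477 without 15 Gy photons mouse 1, 535 without Control photons mouse 2 and 570 without 15 Gy photons mouse 3. Without Control photons mouse 3, the library that stood apart, the counts were 1090 for protons and 1353 for photons, with 596 in both and 0 called for the difference. The count in both was 257 without 15 Gy protons mouse 2 and 280 without Control protons mouse 2.

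Interferon-stimulated genes rose after both radiation types, with smaller fitted rises after protons. The difference passed the threshold for 0 of them without the mouse block, for Samd9l with it (4 genes with DESeq2 and the block), and for 6, all lower, with no block and no filter on low counts. Of 63 listed genes 53 were tested. Protons raised 41 of them (median log2 change 1.68), where 3.39% of all genes rose, and photons raised 51 (median 2.89), where 3.74% of all genes rose. Neither lowered any. The difference was negative for 48 and positive for 5, with a median of -0.80, against 0.04 over all genes tested. With 4 genes that had no count in a group set at their bound, the median was -0.85. Unadjusted, 11 had a p under 0.05, all with a negative difference, as had 2.01% of all genes. The median stayed between -0.96 and -0.69 when each of the 24 libraries was left out in turn, at -0.88 without Control photons mouse 3.

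Values are given for mouse 1, 2 and 3 of each group in turn. Samd9l, an interferon-induced antiviral factor, had 91.2, 79.8 and 91.9 CPM in 15 Gy protons and 43, 41.1 and 39.9 CPM in Control protons, against 141, 103 and 128 CPM in 15 Gy photons and 31.9, 27.7 and 18.6 CPM in Control photons. The irradiated libraries of the 2 types did not overlap, and photon controls lay below proton controls. Its difference was -1.14 ± 0.27 (SE), adjusted p = 0.371 in edgeR's quasi-likelihood test, and with the mouse block -1.16 ± 0.26 (SE), adjusted p = 0.0423. That call was kept in 10 of 24 block fits that each left out 1 library (adjusted p 0.0166 to 0.147), and was lost with library sizes alone (0.124) and with only the 12 libraries of the contrast (0.239). Rsad2, which encodes the antiviral enzyme viperin, had 49.4, 55 and 38.6 CPM in 15 Gy protons and 5.97, 4.67 and 2.08 CPM in Control protons, against 131, 93.3 and 123 CPM in 15 Gy photons and 3.52, 1.42 and 2.01 CPM in Control photons. It rose after protons by 3.44 and after photons by 5.54 on the log2 scale, a difference of -2.11 ± 0.67 (SE) with an adjusted p of 0.606 (edgeR), 0.112 with the mouse block.

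Isg15, whose promoter is printed above with 3 overlapping matches to the element, had 53.5, 91.4 and 68.3 CPM in 15 Gy protons and 6.77, 6.07 and 11.9 CPM in Control protons, against 277, 144 and 315 CPM in 15 Gy photons and 16.5, 8.51 and 5.03 CPM in Control photons. All 3 libraries of 15 Gy photons lay above all 3 of 15 Gy protons, and the controls overlapped. The difference was -1.38 (95% interval -2.92 to 0.16), which spans 0. Ifit1 had 55.8, 79.8 and 54.5 CPM in 15 Gy protons and 3.58, 1.87 and 1.04 CPM in Control protons, against 149, 114 and 189 CPM in 15 Gy photons and 4.60, 4.25 and 1.51 CPM in Control photons. Its difference of -0.55 (95% interval -2.27 to 1.18) also spans 0, and Cxcl10, a chemokine that draws T cells, had a difference of -0.67 (95% interval -3.17 to 1.82).

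**Figure D2:**
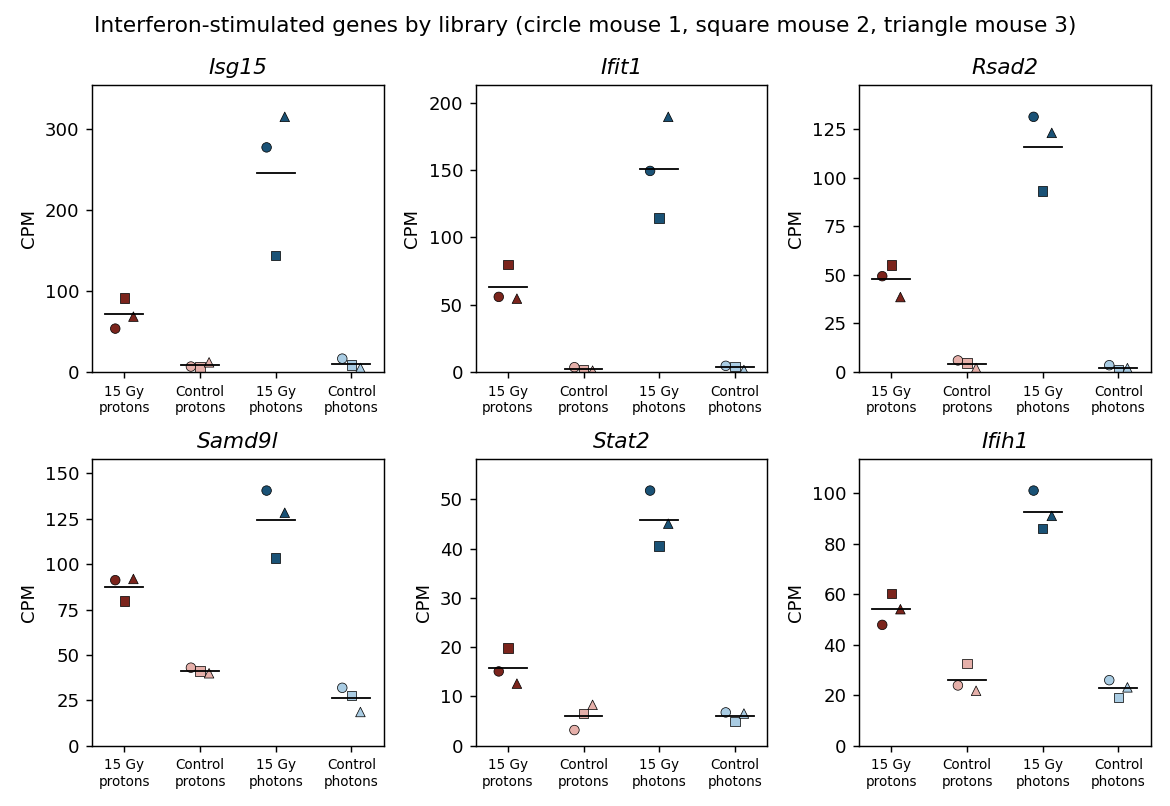
CPM (y axis, linear, from 0) of 6 interferon-stimulated genes in each library of the 4 groups (x axis), with a bar at the mean of 3 mice. In all 6 panels the irradiated libraries of both radiation types lie above their controls, and 15 Gy photons lie above 15 Gy protons.

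Of 19 tested interferon ligands, receptors and signalling genes, 11 had a negative and 8 a positive difference, and 3 had an unadjusted p under 0.05, all negative. Of 19 tested genes of nucleic acid sensing, 13 had a negative and 6 a positive difference, again with 3 at an unadjusted p under 0.05, all negative. Over all genes, 2.01% had a negative difference at that threshold. None passed the threshold. Stat2, which carries the interferon signal to the nucleus, had 15.1, 19.9 and 12.6 CPM in 15 Gy protons and 3.19, 6.53 and 8.30 CPM in Control protons, against 51.7, 40.5 and 45 CPM in 15 Gy photons and 6.76, 4.96 and 6.54 CPM in Control photons. Its difference was -1.45 ± 0.46 (SE), adjusted p = 0.593 (edgeR), 0.0868 with the mouse block. Ifih1, which encodes the double-stranded RNA sensor MDA5, had 47.9, 60.3 and 54.1 CPM in 15 Gy protons and 23.9, 32.7 and 21.8 CPM in Control protons, against 101, 86.1 and 91 CPM in 15 Gy photons and 26, 19.1 and 23.1 CPM in Control photons, a difference of -0.97 ± 0.30 (SE) with an adjusted p of 0.575 (edgeR). Phf11d and Dtx3l, the second a ubiquitin ligase of the DNA damage and interferon responses, had differences of -1.36 ± 0.42 (SE) and -0.85 ± 0.27 (SE), with adjusted p of 0.568 and 0.575 (edgeR). Ifi204, a mouse DNA sensor of the PYHIN family, rose after protons by 1.43 and after photons by 2.34, a difference of -0.91 ± 0.36 (SE). Over the 19 tested genes of nucleic acid sensing the median difference was -0.51. After protons 10 rose and 1 fell, where 3.39% of all genes rose and 3.65% fell. After photons 12 rose, where 3.74% of all genes rose. The ligands, receptors and signalling genes had a median difference of -0.29. Ifnb1, the gene of interferon beta, had 0 counts in all 4 groups and was not tested.

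MHC class I genes present peptides to T cells. Protons raised 1 of 17 tested genes, where 3.39% of all genes rose, and photons raised 7, where 3.74% rose, and none was called for the difference, whose median was -0.52 with 15 of 17 negative. H2-K1, a class I heavy chain, had 292, 309 and 273 CPM in 15 Gy protons and 271, 236 and 271 CPM in Control protons, against 454, 358 and 391 CPM in 15 Gy photons and 252, 241.1 and 122 CPM in Control photons. It rose after photons by 0.96 (edgeR adjusted p = 0.00508), while its proton effect was 0.17 (adjusted p = 0.719) and its difference -0.79 ± 0.30 (SE), unadjusted p = 0.014, adjusted p = 0.813 (edgeR). B2m, the light chain of class I, had a difference of -0.72 ± 0.33 (SE), and Irf1, a transcription factor of this pathway, one of -0.75 ± 0.36 (SE). Control photons mouse 3 had the lowest value of the 12 libraries for H2-K1, B2m and Irf1, and without it the difference of B2m was -0.44. Of the 23 tested inflammatory and secreted factors, 1 had an unadjusted p under 0.05 with a positive difference, as had 3.13% of all genes: Ccl5, a chemokine of T cells. It had 3.77, 5.63 and 4.88 CPM in 15 Gy protons and 0, 0.467 and 0 CPM in Control protons, against 1.75, 4.47 and 5.15 CPM in 15 Gy photons and 1.08, 0.709 and 0.503 CPM in Control photons. Both effects passed the test, and the proton controls held 1 count of it in all, so no fold is given. The list had a median difference of -0.03, with 11 positive and 12 negative.

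Genes of the cornified envelope and of keratinocyte shedding were among the 53 genes called higher with the mouse block. Of the 53, 50 had a proton effect above 0 and 52 a photon effect below 0. The 53 were selected for a positive difference in this same fit, so that these signs, and the values and counts below, are in large part fixed by the selection and are given as a description. They had a median proton effect of 0.88, a median photon effect of -1.31 and a median difference of 2.20 on the log2 scale, all with the block. With the block 27 of the 53 were called higher after protons, where 3.72% of all genes were called higher and 3.87% lower, and 42 were called lower after photons, where 4.1% were called higher and 5.89% lower. They include the late cornified envelope genes Lce3b, Lce3c, Lce3e and Lce3f, the kallikreins Klk7, Klk9, Klk10, Klk12, Klk13 and Klk14, the keratins Krt16 and Krt6b, and the small proline-rich genes Sprr1a, Sprr1b and Sprr2i. Also among them are Lor, Spink5, Cdsn, Rptn, Alox12b, S100a8, S100a9, Slpi, Sfn and Tslp. These names were picked from the 53 after their values were seen.

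On the list of 25 squamous and cornified envelope genes, 23 were tested and 22 had a positive difference, with a median of 1.33 against 0.04 over all genes. Of the 23, 15 had an unadjusted p under 0.05, all with a positive difference, as had 3.13% of all genes, and 0 passed without the block (13 with no filter on low counts). With the block 9 passed, all higher, against 0.477% of all genes: Cnfn, Evpl, Krt16, Krt6b, Krtdap, Lypd3, Sbsn, Sprr1a and Sprr1b. The list's median was 0.27 after protons and -0.81 after photons. Protons raised 3 and lowered 2 of the 23, where 3.39% of all genes rose and 3.65% fell. Photons lowered 3, where 4.44% of all genes fell. Protons raised 1 without Control protons mouse 2, and photons lowered 8 without Control photons mouse 1, 6 without 15 Gy photons mouse 2, and 5 without Control photons mouse 3 or 4 Gy photons mouse 2. With the block protons raised 8 and lowered 2, where 3.72% of all genes rose and 3.87% fell. Photons then lowered 13, where 5.89% of all genes fell. The median difference stayed between 0.94 and 1.53 when each library was left out in turn, at 1.13 without Control photons mouse 3, and the number called with the block between 6 and 11.

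Krt16, a keratin of stressed and dividing epidermis, had 1139, 1287 and 607 CPM in 15 Gy protons and 421, 176 and 188 CPM in Control protons, against 61.9, 147 and 60.1 CPM in 15 Gy photons and 68.5, 125 and 125 CPM in Control photons. All 3 libraries of 15 Gy protons lay above the other 9, and the photon groups overlapped. Its difference was 2.17 ± 0.61 (SE), adjusted p = 0.419 in edgeR's test without the block and 0.00186 with it. Krtdap, a keratinocyte differentiation peptide, had 692, 712 and 382 CPM in 15 Gy protons and 609, 571 and 458 CPM in Control protons, against 71, 142 and 73 CPM in 15 Gy photons and 269, 363 and 250.0 CPM in Control photons. Here the proton groups overlapped and 15 Gy photons lay below all the others. The difference of 1.75 ± 0.44 (SE) had an edgeR adjusted p of 0.419 without the block and 3.6e-04 with it.

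Lor had 30.5, 36.8 and 11.4 CPM in 15 Gy protons and 7.17, 1.87 and 3.11 CPM in Control protons, against 3.85, 8.10 and 0.965 CPM in 15 Gy photons and 4.06, 14.5 and 9.56 CPM in Control photons. The rise after protons was 2.64 (edgeR adjusted p = 0.00616), the photon effect -1.03 (adjusted p = 0.334), and the difference 3.67 ± 0.85 (SE), adjusted p = 0.371, 0.00669 with the block. Lce3c, a late cornified envelope gene, had 112, 87.8 and 63.4 CPM in 15 Gy protons and 74.5, 28.9 and 36.3 CPM in Control protons, against 6.64, 20.1 and 5.79 CPM in 15 Gy photons and 27.9, 87.9 and 36.7 CPM in Control photons. In the photon groups, mouse 2 had the highest value of both its control and its irradiated library. Its difference was 3.09 ± 0.81 (SE) without and 3.23 ± 0.40 (SE) with the block, where the adjusted p was 3.1e-04 (edgeR).

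Klk7, a protease that cuts the junctions between cornified cells, had 42.6, 25.8 and 20.7 CPM in 15 Gy protons and 9.96, 7.46 and 5.19 CPM in Control protons, against 1.40, 9.22 and 2.25 CPM in 15 Gy photons and 6.76, 18.1 and 5.03 CPM in Control photons. Mouse 2 was again the highest in both photon groups. With the block its difference was 3.28 ± 0.49 (SE), edgeR adjusted p = 0.00186, from a proton effect of 1.97 and a photon effect of -1.31. Sprr1a had 1395, 1153 and 631 CPM in 15 Gy protons and 661, 714 and 493 CPM in Control protons, against 401, 561 and 334 CPM in 15 Gy photons and 669, 993 and 614 CPM in Control photons. Every photon-irradiated library was below its own mouse's control, and every proton-irradiated library above it. The block fit gave a difference of 1.52 ± 0.23 (SE) with an edgeR adjusted p of 0.00208.

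Spink5, an inhibitor of these kallikreins, had 1905, 1488 and 886 CPM in 15 Gy protons and 582, 543 and 396 CPM in Control protons, against 192, 456 and 221 CPM in 15 Gy photons and 339, 648 and 369 CPM in Control photons. It rose after protons by 1.49 (edgeR adjusted p = 0.0121), and its difference was 2.13 ± 0.51 (SE), adjusted p = 0.371, 2.6e-04 with the block. S100a8, a calcium-binding protein of neutrophils and of stressed keratinocytes, had 496, 485 and 334 CPM in 15 Gy protons and 305, 179 and 134 CPM in Control protons, against 53.8, 113 and 47.9 CPM in 15 Gy photons and 107, 211 and 137 CPM in Control photons, with a block difference of 2.25 ± 0.28 (SE). Immune markers were at or near 0 in these libraries, and S100a8 itself had 47.9 CPM or more in every library. Which cells the S100a8 RNA came from was not tested. Basal duct markers as a list had a median difference of 0.26 over 9 genes, and Krt14, the basal keratin, one of 0.62 (95% interval -0.05 to 1.30), which was 0.15 without Control photons mouse 3. Summed basal markers and mitochondrial reads were both higher in 15 Gy protons than in 15 Gy photons, and their part in the squamous differences was not tested.

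**Figure D3:**
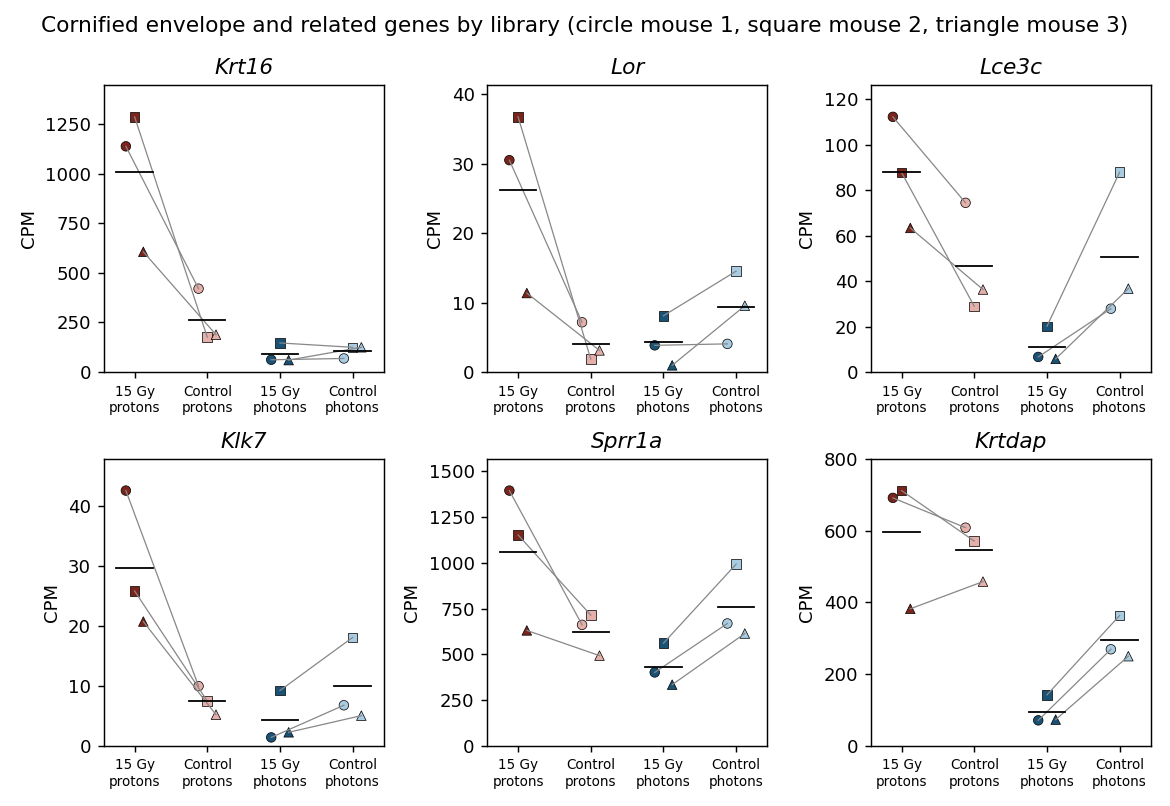
CPM (y axis, linear, from 0) of 6 cornified envelope and related genes in each library of the 4 groups (x axis); thin lines join the irradiated and control library of a mouse and bars mark means of 3. For Krt16, Lor and Klk7 the 15 Gy protons libraries lie above those of their own mice's controls, and for Lce3c, Sprr1a and Krtdap the 15 Gy photons libraries lie below theirs.

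The 5 genes called lower with the block were Ncam1, Osr1, Lox, Egr1 and Samd9l. Ncam1, a neural cell adhesion molecule, had 54.7, 49.4 and 57.3 CPM in 15 Gy protons and 105, 115 and 117 CPM in Control protons, against 75.5, 81.3 and 69.8 CPM in 15 Gy photons and 73.3, 69.1 and 70.4 CPM in Control photons. It fell by 1.06 after protons on the log2 scale (edgeR adjusted p = 7.0e-05), where the photon effect was 0.09, and its 3 proton controls lay above the other 9 libraries. The difference was -1.15 ± 0.21 (SE), adjusted p = 0.144 without and 0.00863 with the block (edgeR). Lox, which cross-links collagen, had 25.3, 24.2 and 20.7 CPM in 15 Gy protons and 58.5, 93.8 and 69 CPM in Control protons, against 82.9, 79.1 and 71.4 CPM in 15 Gy photons and 84.7, 130.5 and 127 CPM in Control photons. All 3 libraries of 15 Gy protons lay below the other 9. Its difference was -1.10 ± 0.29 (SE), adjusted p = 0.419, 0.0288 with the block (edgeR). Osr1, a transcription factor of developing mesenchyme and kidney, had 10.2, 13.3 and 10.6 CPM in 15 Gy protons and 17.5, 13.5 and 17.6 CPM in Control protons, against 21.7, 20.1 and 15.4 CPM in 15 Gy photons and 9.20, 10.6 and 12.1 CPM in Control photons. Its photon effect passed the test (0.86, adjusted p = 0.00527, edgeR), and its proton effect of -0.51 did not. These genes are named because the blocked test called so few.

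Part of the p53 targets rose after each radiation type. Protons raised 13 and lowered 1 of 43 tested targets, against 3.39% and 3.65% of all genes, photons raised 17 and lowered 1, against 3.74% and 4.44%, and the median difference was -0.03. Cdkn1a, the cell cycle inhibitor p21, had 1226, 1406 and 1308 CPM in 15 Gy protons and 919, 794 and 779 CPM in Control protons, against 1262, 1187 and 1043 CPM in 15 Gy photons and 443, 768 and 616 CPM in Control photons. Its difference was -0.27 (95% interval -0.73 to 0.18). Mdm2, the ubiquitin ligase that limits p53, rose by 1.07 after protons and 1.24 after photons, a difference of -0.18 (95% interval -0.61 to 0.25), and Ccng1, a cyclin of the same response, had -0.15 (95% interval -0.46 to 0.16). The lowest p of the list were those of Ddit4, an inhibitor of mTOR (-0.67 ± 0.25 (SE)), Ak1, an adenylate kinase (-0.52 ± 0.21 (SE)), and Bbc3, the cell death gene of PUMA (-0.45 ± 0.20 (SE)), all negative, with edgeR adjusted p of 0.764, 0.823 and 0.847.

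Cell division genes had median differences near 0. DNA replication genes had a median difference of -0.12 over 39, and genes of G2 and mitosis -0.01 over 40, with 0 called after protons and 1 lower after photons in the mitosis list (4.44% of all genes fell after photons), or 2 and 4 lower with the block (3.87% and 5.89% of all genes). Mki67, a marker of cycling cells, had 95, 96.7 and 97.2 CPM in 15 Gy protons and 116, 126 and 113 CPM in Control protons, against 54.2, 53.4 and 54.4 CPM in 15 Gy photons and 81.7, 68.1 and 129 CPM in Control photons, a difference of 0.47 (95% interval -0.31 to 1.25). Control photons mouse 3 had the highest value of the 12, and without it the difference was 0.16. Lmnb1, the nuclear lamin that senescent cells lose, had -0.24 (95% interval -0.77 to 0.30). Over 29 double-strand break repair genes the median difference was -0.06 and neither effect called any.

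Part of the hypoxia and glycolysis genes fell after each radiation type. Protons lowered 17 of 36, where 3.65% of all genes fell, and photons lowered 16 and raised 1, where 4.44% of all genes fell and 3.74% rose, with median changes of -0.64 and -0.68, and the median difference was 0.02. Egln3, a prolyl hydroxylase induced by hypoxia, fell by 1.17 after protons and fell by 1.27 after photons, a difference of 0.10 (95% interval -0.73 to 0.94) whose sign turned in 5 of the fits that left out 1 library. Egln1, a related enzyme, fell by 0.91 after protons and had a photon effect of -0.19, which did not pass, a difference of -0.72 ± 0.24 (SE) with an edgeR adjusted p of 0.61. Its proton controls were higher than its photon controls by 1.16 on the log2 scale (adjusted p = 2.1e-04). Of 12 glucocorticoid response genes tested, protons lowered 8 and raised 1, and photons lowered 6, with a median difference of -0.12. Of 18 circadian clock genes, protons lowered 6 and photons lowered 8, with a median difference of -0.14. For both lists the shares over all genes were 3.65% lower and 3.39% higher after protons, and 4.44% lower after photons.

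Immediate early genes, which growth factors and stress switch on within minutes, included genes whose 2 control groups differed. Fos had 69.4, 71.2 and 45.1 CPM in 15 Gy protons and 81.6, 68.1 and 88.7 CPM in Control protons, against 30.8, 23.7 and 27.3 CPM in 15 Gy photons and 14.3, 14.9 and 12.6 CPM in Control photons. The proton controls were 2.50 log2 units above the photon controls (edgeR adjusted p = 3.5e-07), which is larger than its difference of -1.31 ± 0.31 (SE), adjusted p = 0.371. Egr1 had 62.6, 62.6 and 49.6 CPM in 15 Gy protons and 173, 176 and 120.4 CPM in Control protons, against 81.5, 68.7 and 61.4 CPM in 15 Gy photons and 51.1, 106 and 91 CPM in Control photons, a difference of -1.20 ± 0.34 (SE) with an adjusted p of 0.419, 0.0469 with the block (edgeR). Atf3 had 34.3, 30.1 and 37.8 CPM in 15 Gy protons and 38.2, 37.8 and 32.7 CPM in Control protons, against 2.10, 1.68 and 2.89 CPM in 15 Gy photons and 7.31, 13.8 and 5.03 CPM in Control photons, so that its libraries split by radiation type with and without irradiation. Its difference was 1.90 ± 0.67 (SE), adjusted p = 0.705 (edgeR). Jun fell by 1.20 after protons and fell by 1.69 after photons, a difference of 0.48 (95% interval -0.13 to 1.10). Over the 24 genes tested the median difference was 0.01, with 10 higher in Control protons than in Control photons. At an unadjusted p under 0.05 stood 1 with a positive and 5 with a negative difference, as did 3.13% and 2.01% of all genes. Between the 2 control groups 804 genes were called in all, 409 higher (3.68%) and 395 lower (3.55%) in Control protons.

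Matrix and TGF-beta genes had a median difference of 0.03 over 25, and 14 of the 25 were positive. At an unadjusted p under 0.05 stood 7, 3 positive and 4 negative, as did 3.13% and 2.01% of all genes. Tgfbi, a matrix protein induced by TGF-beta, had a difference of 0.97 ± 0.37 (SE), adjusted p = 0.813, with a fall of 1.28 after photons (adjusted p = 0.00301, edgeR). It was chosen after its values were seen. Fn1, the gene of fibronectin, had 143, 91.4 and 92.3 CPM in 15 Gy protons and 152, 237 and 180.0 CPM in Control protons, against 314, 266 and 272 CPM in 15 Gy photons and 285, 319 and 157 CPM in Control photons. It fell by 0.80 after protons (edgeR adjusted p = 0.0259), with a photon effect of 0.16 and a difference of -0.96 ± 0.30 (SE), adjusted p = 0.598. Thbs1, a matrix glycoprotein, had a difference of -1.07 ± 0.32 (SE), and Col4a6, a basement membrane collagen, one of -2.30 ± 0.69 (SE). Fibroblast markers summed to 12.4 CPM at most in 15 Gy protons and 32.7 CPM in Control protons, against 9.65 CPM in 15 Gy photons and 26.2 CPM in Control photons, and their part in these values was not tested.

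Among developmental pathways, Sox9, a transcription factor of salivary duct progenitors, rose after photons by 0.69 (edgeR adjusted p = 0.00207) and had a proton effect of 0.10, a difference of -0.59 ± 0.19 (SE) with an adjusted p of 0.61. Control photons mouse 3 had its lowest value. Tnfrsf19, a Wnt target, fell by 1.05 after protons, against a photon effect of -0.18. Hey1, a Notch target, fell by 2.80 after protons and fell by 1.78 after photons. For neither gene did the difference pass the threshold. The smallest adjusted p for the difference was 0.61 in the Wnt list and 0.827 in the Notch list (edgeR). The Wnt list had a median difference of -0.13 over 14 genes, the Notch list -0.04 over 11 and the YAP list -0.20 over 13. Sterol and fatty acid synthesis had a median of 0.07 over 32, NRF2 antioxidant genes -0.01 over 17 and chaperones 0.13 over 16. Among the chaperones Hspb1, a small heat shock protein, fell by 1.25 after photons and had a proton effect of -0.22. No chaperone passed the threshold for the difference, with a smallest adjusted p of 0.747 (edgeR). Apoe, the lipid carrier, fell by 3.35 after protons and fell by 2.77 after photons, a difference of -0.58 (95% interval -1.96 to 0.81). Aqp5, the water channel of saliva secretion, fell by 2.34 after protons and fell by 1.58 after photons, a difference of -0.77 (95% interval -2.14 to 0.61). Acta2, an actin of myoepithelial cells, had a difference of 0.97 (95% interval -0.82 to 2.75). Serpina3n, a protease inhibitor, had 0.377, 0 and 0 CPM in 15 Gy protons and 1.99, 2.33 and 0.519 CPM in Control protons, against 2.45, 1.12 and 2.57 CPM in 15 Gy photons and 19.8, 9.57 and 14.1 CPM in Control photons, with 1 count in all in 15 Gy protons, so no fold is given.

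**Figure D4:**
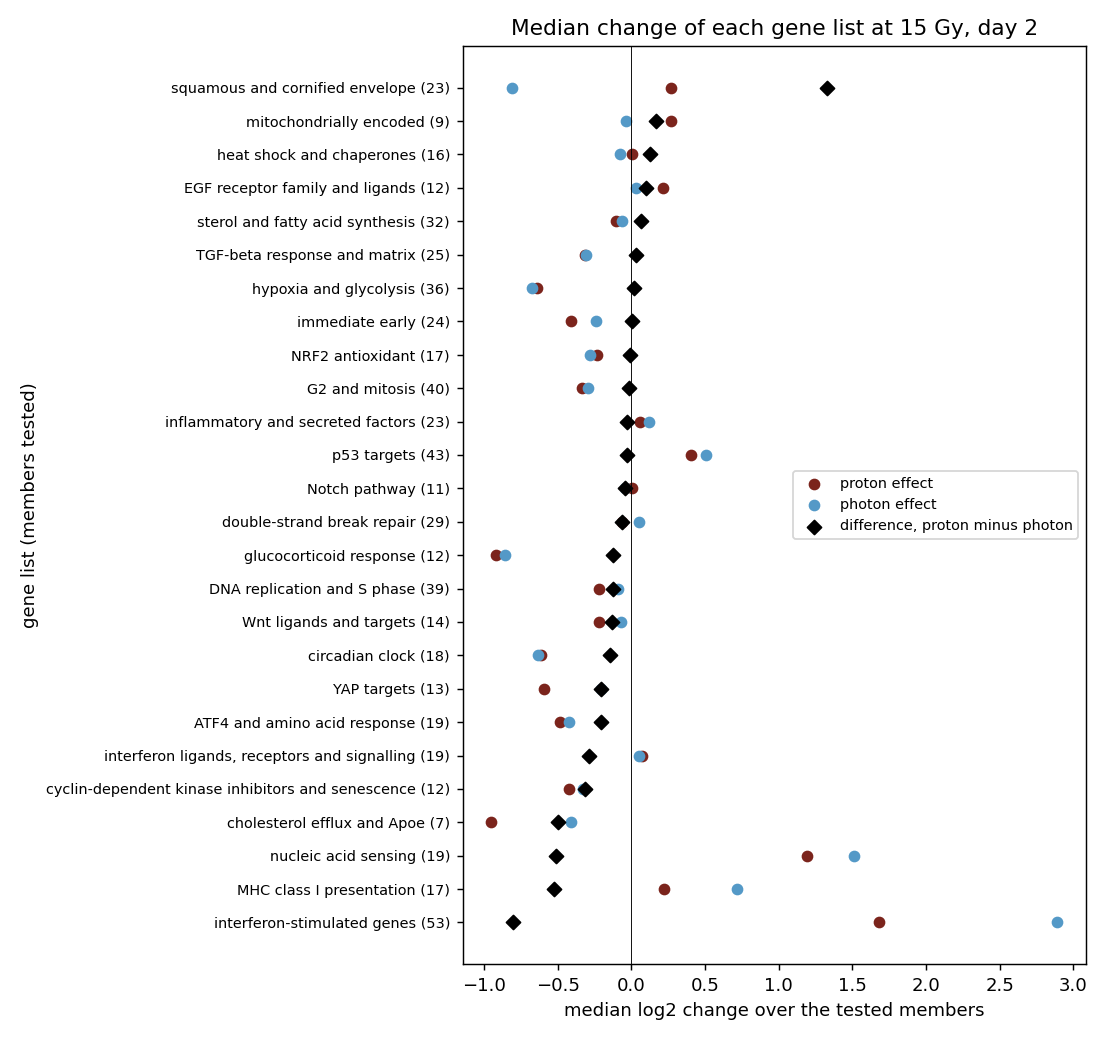
Median fitted log2 change (x axis) over the tested members of each gene list other than cell type markers (y axis, number tested in brackets) with at least 5 of them, for the proton effect (dark red), the photon effect (blue) and the gene-by-gene difference (black diamonds), 15 Gy, day 2. The difference is 1.33 for the squamous list at the top and -0.80 for interferon-stimulated genes at the bottom, and the other lists drawn lie between -0.52 and 0.17.

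The same contrast at the lower doses used other irradiated libraries and the same controls, so that the values are given side by side and are not independent. No gene passed the threshold at 4 Gy, with 311 at an unadjusted p under 0.05, or at 7 Gy, with 1018 (edgeR). With the mouse block 35 genes were called at 7 Gy and 0 at 4 Gy, and with no block and no filter on low counts 148 and 1. The interferon-stimulated genes had median differences of 0.16, -0.16 and -0.80 at 4, 7 and 15 Gy. The squamous list had 0.30, 1.07 and 1.33. Samd9l had -0.53, -0.73 and -1.14 at 4, 7 and 15 Gy, and Stat2 -4.5e-05, -0.29 and -1.45. Krt16 had 0.85, 2.09 and 2.17, Lce3c 0.81, 3.09 and 3.09, and Lor 2.40, 3.26 and 3.67. Ncam1 had -0.48, -0.61 and -1.15, and Lox 0.02, 0.09 and -1.10.

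At day 6 after the same dose the interferon-stimulated genes differed in the other direction. With edgeR, 499 of 11310 genes were called for the difference at day 6, 289 higher (2.56%) and 210 lower (1.86%). That count was 1254 without 15 Gy protons mouse 1 and 892 without Control photons mouse 3, both of day 6. It was 41, 186, 97 and 145 without Control photons mouse 1, Control photons mouse 2, 15 Gy photons mouse 1 and 15 Gy photons mouse 3, and 124, 102, 219 and 252 without Control protons mouse 2, Control protons mouse 3, 15 Gy protons mouse 2 and 15 Gy protons mouse 3. Of 60 interferon-stimulated genes tested at day 6, 14 were called higher and 0 lower, with a median difference of 1.26, where the median proton effect was 3.51 and the median photon effect 2.20. Over all genes at day 6, protons raised 12.6% and lowered 11.5%, and photons raised 2.8% and lowered 3.24%. Leaving out 1 library of day 6 at a time, 1 to 19 were called higher. Of the 22 squamous genes tested then, 0 were called and the median difference was 0.07.

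The change between the days was itself tested in a fit of all 48 libraries, an analysis added after the data were seen. It called 5 of 11621 genes (8 with the mouse block), all 5 higher at day 6 (0.043%): Ifih1, Dtx3l, Bhlhe41, Sema3d and Adam12. Ifih1 had a difference of -0.97 at day 2 and 1.26 at day 6, a change of 2.22 (edgeR adjusted p = 0.00867). Dtx3l had -0.85 and 0.92, a change of 1.76 (adjusted p = 0.0471). Bhlhe41, a repressor of the circadian clock, had -0.36 and 0.97. The interferon-stimulated genes as a list had a median change of 2.20 over the 59 tested on both days, with 1 called.

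**Figure D5:**
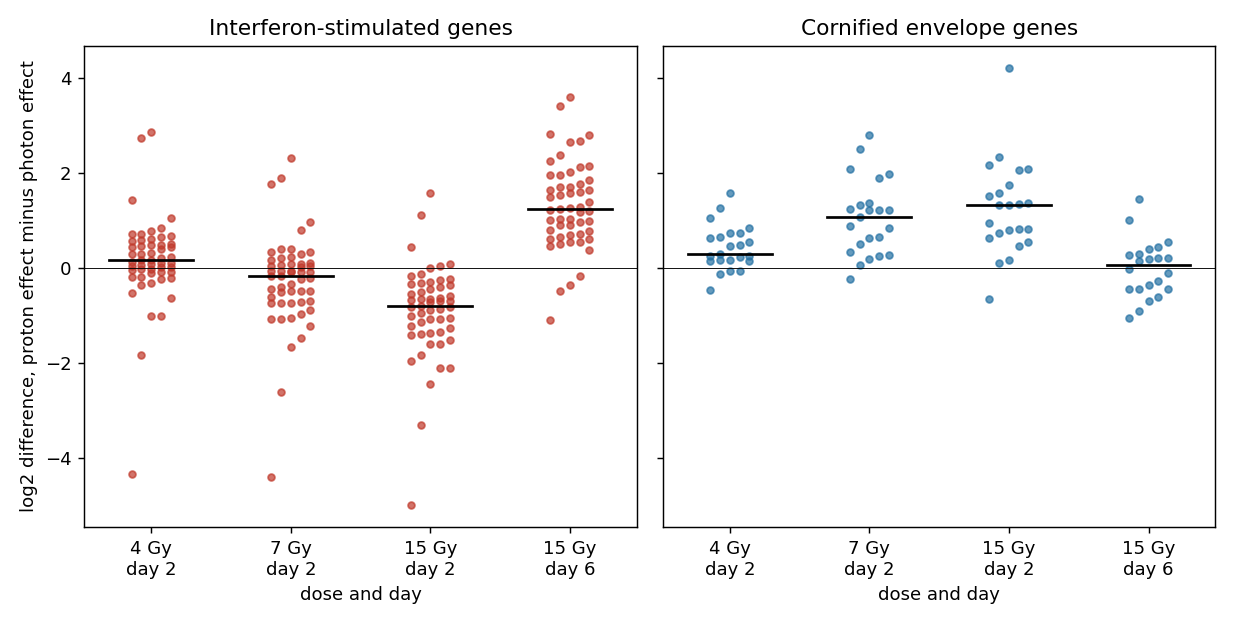
Log2 difference (y axis, proton effect minus photon effect) of each interferon-stimulated gene (53, left) and each squamous and cornified envelope gene (23, right) that was tested at day 2, at 4, 7 and 15 Gy on day 2 and 15 Gy on day 6 (x axis); lines mark medians, and 4 of the interferon genes have a group with no count. Interferon-stimulated genes lie mostly below 0 at 15 Gy on day 2 and mostly above it on day 6, and squamous genes are highest at 7 and 15 Gy on day 2.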

How the data were processed

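The deposited files are raw gene counts made by the authors. Per the labels' protocols, 100 ng of RNA with an integrity number above 9 went into QuantSeq 3' libraries. The submitters' processing notes name GRCm39 and edgeR. Which aligner, counter, strand setting and annotation were used is not given in the sources used here, so overlapping or near-identical genes may share reads. The 5 summary lines per file were left out, with 8.45 to 11.9% of each of the 12 libraries' reads. The deposited CPM tables were not used. Symbols matched 47224 of 47643 identifiers.

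All 8 groups of day 2 (24 libraries) were fitted together with edgeR 4.0.16 in R 4.3.3 (TMM, filterByExpr, quasi-likelihood F test, Benjamini-Hochberg, threshold 0.05), so that 12 further libraries add to the estimate of spread. The SE is the log2 value over the square root of F. limma 3.58.1, DESeq2 1.42.0, other filters and scalings, mouse blocks and leaving out each library were alternatives. A mouse number marks 1 animal within a radiation type per the labels. Deviations from group means had a mean correlation of 0.09 between same-numbered libraries (18 pairs in each type, 6965 genes) and of -0.04 and -0.05 between others for protons and photons. For the 15 Gy library and its own control it was negative in all 6 pairs. The labels do not say more of how cultures were kept apart, so p-values measure the spread between these samples. No replicate pair agreed within sampling noise.

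The genes named were drawn from up to 15 called genes per direction with a mean of at least 5 CPM (0 here; applied to the block fit it gave 20), up to 4 members of each of 35 lists with the smallest p, and 17 further genes. The members and lists were chosen with earlier results of these data known. The tests were checked on simulated counts.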

Additional observations from a re-analysis of the deposited data

Results flagged for a closer look

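With the mouse block the difference called 58 genes at day 2, where the fit without it called 0. At day 6 the difference called 499 genes. The test of the change between the days called 5, with changes of 2.22 for Ifih1, 1.76 for Dtx3l, 1.32 for Bhlhe41, 3.76 for Sema3d, a secreted guidance protein, and 2.05 for Adam12, a membrane protease, on the log2 scale, the last 2 with differences of -0.64 and -0.27 at day 2 and 3.12 and 1.78 at day 6. Both of these differences at day 6 passed edgeR's test (adjusted p = 0.00136 for Sema3d and 0.0114 for Adam12). The difference at day 6 also passed it for further genes named in the text, of which 9 are given here. It was positive for Rsad2 (2.83, adjusted p = 0.0143), Ifit1 (2.02, 0.0359), Mndal (1.42, 0.0491), Phf11d (1.29, 0.0333), Ifih1 (1.26, 0.00929), Bhlhe41 (0.97, 0.00929) and Dtx3l (0.92, 0.0323), and negative for Egln1 (-1.31, 0.00929) and the metallothionein gene Mt2 (-1.19, 0.0163). At day 2 the same 9 had differences between -2.11 and -0.36, none of which passed.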

How the results depend on the processing

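The difference at day 2 called 0 genes with library sizes alone, the stricter filter, the 12 libraries alone, limma-voom and the block that shares mice between radiation types. It called 4 with DESeq2, 122 with no filter on low counts and 58 with the replicate block, and 0 to 1 genes when 1 of the 24 libraries was left out (1 without 4 Gy photons mouse 2). With the replicate block the 58 became 137 with no filter and 20 with the 12 libraries alone, and ran from 33 to 84 without single libraries (37 without Control protons mouse 3). The proton effect ran from 399 to 1090 and the photon effect from 477 to 1353 without single libraries. At day 6 the difference called 904 genes with no filter and 41 to 1254 without single libraries. The change between days called 8 genes with the replicate block and 2 to 14 without single libraries. Differences of single genes were followed for 81 genes, which leave out some named in the text, among them Krt16, Spink5 and S100a8. Of their 644 values under 8 alternatives, 581 kept their sign and their side of the threshold. A further 61 kept their sign and passed it, and 2 turned: Serpina3n to 0.165 and Serpina3m to 0.245 with limma-voom. Leaving out libraries turned Ifit1 (range -0.86 to 0.038) and Egln3 (range -0.15 to 0.43). The cause of these changes was not tested. Depths of 2027640 to 3527740 counts and 3 mice a group limit the precision.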
